A study of Mus musculus with 12 samples.

Results

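Kit, Ly6a, Cd34, Slamf1, Cd48, Procr, Thy1, Cd27 and Tek encode 9 proteins of the cell surface by which blood stem cells and early progenitors of the mouse are sorted. They were chosen by name as the antigens of the LSK gate and of the gates that divide it, by a rule that uses no measured value, although earlier results of these data were known. The 9 genes are 9 of the 24421 symbols in the count table, each was present in 1 row, and all 9 were among the 12744 genes that passed the low-count filter. The cells were bone marrow cells that carried GFP, lacked lineage antigens and were positive for Kit and Sca-1 (LSK), sorted from secondary recipient mice, that is, mice given cells of a transplant that had already passed through a first host.

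The donor stem and progenitor cells were of 4 genotypes, with 3 libraries each. Wildtype cells (titled Empty) had intact miR-146a and Runx1, and miR146aKO cells (titled Mir-146 KO/Empty) lacked miR-146a. Runx1mut cells carried Runx1S291fsX300, a frameshift that shortens the transcription factor Runx1, and miR146aKO_Runx1mut cells carried both changes. All 4 groups had the GFP mark and 2 rounds of transplantation in common. The titles do not say what Empty is or how the mutant Runx1 was brought in, and they give neither the age nor the strain of the mice. Libraries are named here by the column that held them, which are A015, A040 and A053 for wildtype, A047, A150 and A151 for miR146aKO, A021, A042 and A058 for Runx1mut, and A001, A031 and A051 for miR146aKO_Runx1mut. Whether each library stands for its own animal is not said in the labels, and p-values therefore refer to the spread between libraries, which may be technical.

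Total counts were 3540043 to 7026393 per library, with miR146aKO the shallowest group at 3540043 to 4353971. The microRNA gene Mir146 had 14 counts in A031, which is labelled as lacking miR-146a, and 0 in the other 11 libraries, so the 0 counts check no label. These 14 counts do not go with the knockout label of A031 and put its group in doubt, and their source was not tested. The library is used here as labelled, and several of the values that rest on it, but not all, are also given without it. Y-linked transcripts averaged 0.1368 to 7.99 CPM in wildtype libraries and 24.8 to 60.4 in miR146aKO. Genes of mature B cells, which a lineage-negative sort removes, summed to 18.2 to 59.9 CPM over 8 genes in wildtype libraries and to 465 to 2567 in miR146aKO. All values are from RNA, so they say nothing directly about the antigen on the cell. In bulk libraries, fewer cells with a transcript and less of it per cell cannot be told apart.

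Kit is the receptor for stem cell factor and Sca-1, the product of Ly6a, is a small protein tethered to the membrane by a lipid anchor. Together with the absence of lineage antigens they define LSK cells, a mixture in which stem cells are a minority. Within LSK, long-term stem cells carry CD150 (Slamf1) and the endothelial protein C receptor (Procr) and lack CD48 and, in adult mice, CD34. Multipotent progenitors gain CD48 and CD34 and lose CD150 and Procr. CD27 marks most of the gate, Thy1 is low on stem cells and high on T cells, and Tek (Tie2) is an angiopoietin receptor of endothelium and of quiescent stem cells.

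The sequence that the knockout removes and the promoter stretches of 4 members are printed here because the design alters a microRNA and a DNA-binding factor and because the values below turn on these genes. The mature miR-146a-5p, encoded at chr11:43374435-43374456 on the minus strand (RefSeq, GRCm38.p6), is given with its seed, bases 2 to 8, in capitals. A microRNA pairs with its targets mainly through this seed.
miR-146a-5p: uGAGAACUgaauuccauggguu

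RefSeq promoter entries matched 7 of the 9 members, and Ly6a and Thy1 had no entry. The 250 bases before each RefSeq start were searched on both strands for the RUNX core TGTGGT and for the GATA motifs AGATAA and TGATAA. The only matches found lay in different genes, so none overlap. Of 32851 windows of this length, 14.0% held the RUNX core and 16.6% a GATA motif. The RUNX core was found once, in Cd48, 76 bases before its start, and a GATA motif once, in Slamf1, 130 bases before its start. The windows of Cd34, Procr, Tek, Kit and Cd27 held neither set of letters. Capitals mark the match in the stretches printed next, which end before the earliest annotated start and lie on the plus strand at chr1:171681742-171681991 (Cd48), chr1:171766882-171767126 (Slamf1), chr2:155750967-155751116 (Procr) and chr5:75574737-75574915 (Kit). A match of letters is a description and does not show that a factor binds there.
Cd48: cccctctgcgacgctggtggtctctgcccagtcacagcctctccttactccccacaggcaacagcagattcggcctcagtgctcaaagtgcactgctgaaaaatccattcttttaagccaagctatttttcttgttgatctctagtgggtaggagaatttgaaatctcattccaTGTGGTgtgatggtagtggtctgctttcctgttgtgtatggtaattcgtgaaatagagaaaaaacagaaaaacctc
Slamf1: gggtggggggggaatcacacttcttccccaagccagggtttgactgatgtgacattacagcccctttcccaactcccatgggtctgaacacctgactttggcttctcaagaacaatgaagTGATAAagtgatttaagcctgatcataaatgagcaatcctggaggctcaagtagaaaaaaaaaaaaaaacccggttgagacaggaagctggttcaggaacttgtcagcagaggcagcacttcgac
Procr: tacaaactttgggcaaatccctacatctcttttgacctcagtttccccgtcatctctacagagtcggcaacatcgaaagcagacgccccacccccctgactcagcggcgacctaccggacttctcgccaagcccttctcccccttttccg
Kit: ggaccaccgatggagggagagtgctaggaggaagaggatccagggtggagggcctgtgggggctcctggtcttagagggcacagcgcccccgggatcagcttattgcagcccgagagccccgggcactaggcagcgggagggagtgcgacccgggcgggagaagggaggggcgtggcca

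**Figure D1:**
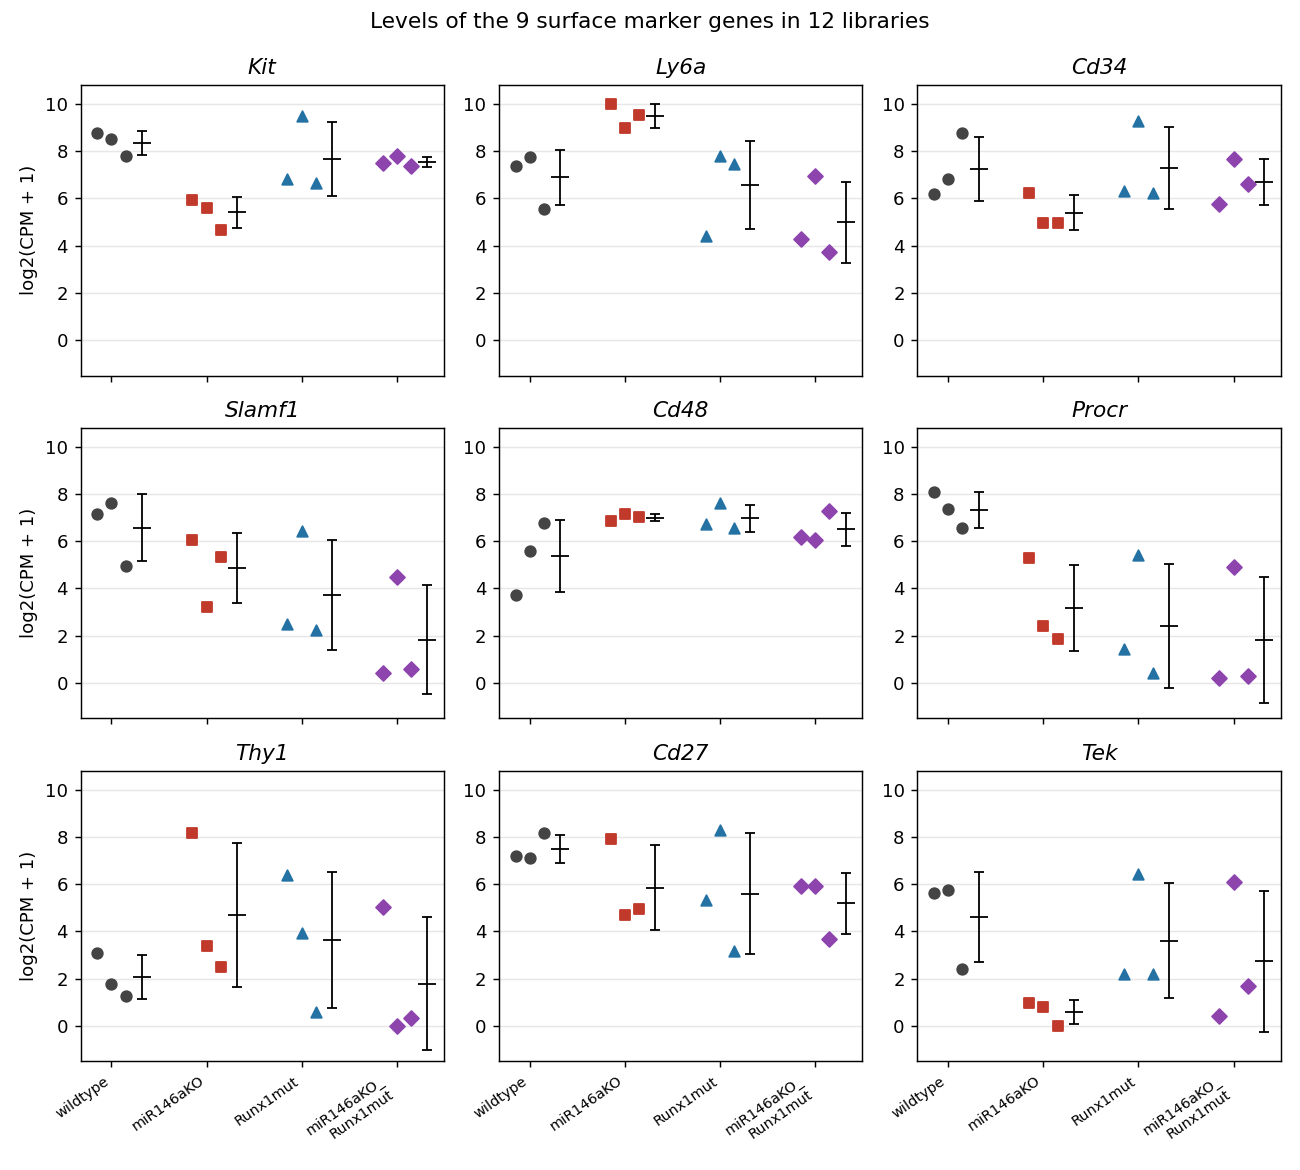
Level of each of the 9 genes as log2(CPM + 1) on the y axis in the 4 groups on the x axis, 1 panel per gene, with a point per library and the mean ± SD of 3 libraries. The miR146aKO libraries are below all others for Kit and above all others for Ly6a, and the wildtype libraries are above all others for Procr.

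The pair of genes that defines the gate parted in the miR146aKO libraries, with Kit at its lowest and Ly6a at its highest level there. Kit (chromosome 5, 75574916 to 75656722, plus strand, GRCm38) was measured at 436, 363 and 218 CPM in wildtype libraries A015, A040 and A053. In miR146aKO libraries A047, A150 and A151 it was at 59.7, 47.7 and 24.6 CPM. The Runx1mut libraries A021, A042 and A058 had 113, 711 and 101 CPM, and the miR146aKO_Runx1mut libraries A001, A031 and A051 had 178.5, 219 and 164. All 3 miR146aKO libraries were thus lower than the other 9, a pattern that 2.83% of the tested genes had, while the other 3 groups overlapped one another. Runx1mut held both the highest library of all, A042, and a pair lower than every wildtype library.

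In the ordering by group mean, Kit was at 339 ± 111 CPM in wildtype, 308 ± 349 in Runx1mut, 187 ± 28.6 in miR146aKO_Runx1mut and 44.0 ± 17.9 in miR146aKO (SD, n = 3 each). Wildtype and Runx1mut, as neighbours in this order, did not differ beyond their spread. The log2 difference of miR146aKO from wildtype was -2.95 ± 0.68 (SE), which did not pass the threshold (edgeR quasi-likelihood test, Benjamini-Hochberg adjusted p = 0.0725, unadjusted p = 0.000677). DESeq2 called it, with an adjusted p of 0.00194, and edgeR called it without A042 (adjusted p = 0.0119). Between the miR146aKO_Runx1mut and miR146aKO libraries the log2 difference was 2.09 ± 0.66 (edgeR adjusted p = 0.169), and 1.96 without A031 (adjusted p = 0.19). Summed markers of B cells ran opposite to Kit over the 12 libraries (Pearson r = -0.878, a description), at 55.5 to 108.9 CPM in miR146aKO_Runx1mut and 13.4 to 156 in Runx1mut, with 7 of the 8 B cell genes higher in miR146aKO than in wildtype at an unadjusted p under 0.05. Of these 8, edgeR called 1, Cd79b (log2 difference 4.95 ± 0.78, adjusted p = 0.0322), where 0.18% of all tested genes were called. The 8 markers of monocytes and macrophages also ran opposite to Kit (r = -0.704). They summed to 208 to 455 CPM in wildtype libraries, 429 to 8365 in those of miR146aKO, 77.4 to 475 in Runx1mut libraries and 741 to 5419 in miR146aKO_Runx1mut, and 7 of the 8 were higher in miR146aKO than in wildtype at an unadjusted p under 0.05. Over all tested genes, 15.9% had an unadjusted p under 0.05 in miR146aKO against wildtype, in either direction. The part of either list in the Kit difference was not tested. With the Y-linked level as a covariate the Kit difference of miR146aKO from wildtype was -3.75 (edgeR adjusted p = 0.282).

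Ly6a (chromosome 15, 74994877 to 74998031, minus strand) was at 162, 216 and 46.0 CPM in A015, A040 and A053 of wildtype. It reached 1019, 505 and 742 CPM in A047, A150 and A151 of miR146aKO. It was at 20.4, 222 and 172 CPM in A021, A042 and A058 of Runx1mut, and at 18.6, 121 and 12.1 in A001, A031 and A051 of miR146aKO_Runx1mut. The miR146aKO libraries were above the other 9, as 3.52% of the tested genes were, and the other 3 groups overlapped. The lowest 2 values of the series belonged to A051 and A001, which like miR146aKO lack miR-146a by their labels.

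Group means of Ly6a were 755 ± 258 CPM in miR146aKO, 142 ± 87.0 in wildtype, 138 ± 105 in Runx1mut and 50.6 ± 61.1 in miR146aKO_Runx1mut (SD, n = 3 each). The latter 3, taken as neighbours, did not differ beyond their spread. Against wildtype, miR146aKO differed by 2.42 ± 0.91 on the log2 scale (edgeR adjusted p = 0.218), and by 1.39 with the Y-linked covariate (adjusted p = 0.794). Over the 12 libraries Ly6a ran with the summed markers of B cells (r = 0.577) and of T and NK cells (r = 0.524). The latter were at 11.5 to 78.4 CPM in wildtype and 12.7 to 1450 in miR146aKO. Ly6a ran opposite to the 8 neutrophil markers (r = -0.617), whose sums were highest in A001, A021 and A051, at 53250, 52660 and 33610 CPM. These libraries had the least Ly6a, but A040 had the next highest sum, 26330 CPM, with Ly6a at 216. For neutrophil markers miR146aKO, at 3784 to 11010 CPM, lay within the wildtype range of 2041 to 26330. The part of these lists in the Ly6a differences was not tested. The largest contrast of this gene was miR146aKO_Runx1mut against miR146aKO at -3.90 ± 0.97 (edgeR adjusted p = 0.119), which DESeq2 called (adjusted p = 0.00136). Without A031 it was -5.61 (edgeR adjusted p = 0.0663). The interaction, which is the difference of miR146aKO_Runx1mut from miR146aKO minus that of Runx1mut from wildtype, was -3.86 ± 1.27 for Ly6a (edgeR adjusted p = 0.37, unadjusted p = 0.00857). This interaction was -5.58 without A031 (edgeR adjusted p = 0.197). Of the stretches of 50 bases in Ly6a transcripts, 19.0% also occur in transcripts of other genes, mostly Ly6c1, so counting could split reads between them. Ly6c1 itself was at 4.26 CPM or less in each library.

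Per kilobase of annotated exon, the ratio of Ly6a to Kit joined the 2 opposite patterns into 1 value. It was 2.75, 4.41 and 1.56 in A015, A040 and A053 of wildtype and 126, 78.3 and 223 in A047, A150 and A151 of miR146aKO. In Runx1mut it was 1.34, 2.31 and 12.7 for A021, A042 and A058, and in miR146aKO_Runx1mut it was 0.771, 4.08 and 0.546 for A001, A031 and A051. The lowest miR146aKO ratio was above the highest ratio of the other 9 libraries. The Kit and Ly6a patterns given above fix this in advance, so it is no further result. A058 had the highest ratio outside miR146aKO, and A001 and A051 were the libraries in which Ly6a was below Kit per kilobase.

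**Figure D2:**
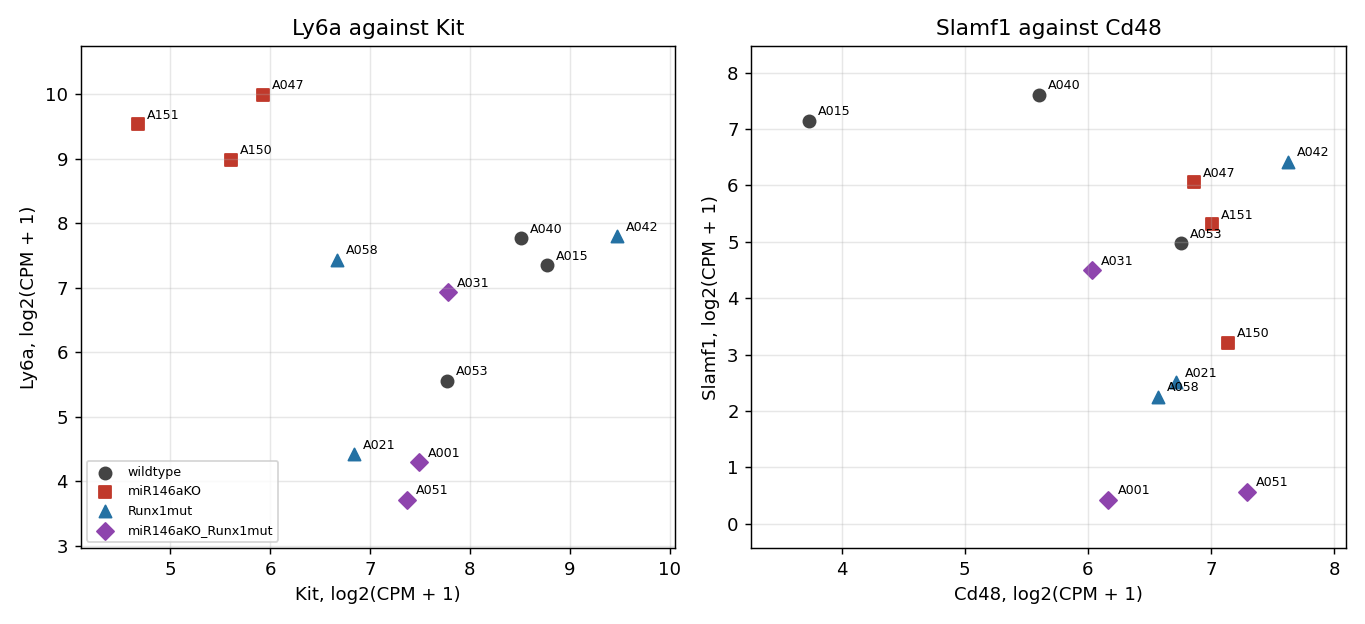
Each of the 12 libraries by its Kit (x axis) and Ly6a (y axis) level in 1 panel and by its Cd48 and Slamf1 levels in the other, all as log2(CPM + 1), coloured by group and labelled by library. The 3 miR146aKO libraries lie apart at low Kit and high Ly6a, whereas in the Cd48 and Slamf1 panel the groups are mixed and A001 and A051 lie at the lowest Slamf1 levels.

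Slamf1 and Cd48, neighbours on chromosome 1 and members of the SLAM family of receptors, are used together to tell stem cells from progenitors within LSK. Slamf1 (171767127 to 171801184, plus strand) was at 140.5, 194 and 30.3 CPM in A015, A040 and A053 of wildtype and at 65.4, 8.23 and 38.7 in A047, A150 and A151 of miR146aKO. In Runx1mut, A042 stood at 84.65 CPM while A021 and A058 stood at 4.68 and 3.76. In miR146aKO_Runx1mut, A031 stood at 21.5 CPM while A001 and A051 had 2 counts each (0.3445 and 0.485 CPM). The groups with mutant Runx1 each had 1 higher and 2 lower libraries, and no miR146aKO_Runx1mut library reached the lowest wildtype library.

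The order of the Slamf1 means was 122 ± 83.6 CPM in wildtype, 37.45 ± 28.6 in miR146aKO, 31.03 ± 46.4 in Runx1mut and 7.44 ± 12.2 in miR146aKO_Runx1mut (SD, n = 3 each), and each group overlapped its neighbour. The log2 difference of miR146aKO_Runx1mut from wildtype was -4.02 ± 1.53 (edgeR adjusted p = 0.475, unadjusted p = 0.02). Without A031 it was -8.14, still not called (adjusted p = 0.182). For miR146aKO against wildtype it was -1.70 ± 1.39 (edgeR adjusted p = 0.602), and -5.76 with the Y-linked covariate.

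Cd48 (171682009 to 171705258, plus strand), the ligand of CD2 and CD244, was at 12.3, 47.5 and 107 CPM in A015, A040 and A053 of wildtype. It was at 115, 139 and 127.5 CPM in A047, A150 and A151 of miR146aKO, at 104, 196 and 93.8 in A021, A042 and A058 of Runx1mut, and at 70.8, 64.5 and 156 in A001, A031 and A051 of miR146aKO_Runx1mut. The miR146aKO libraries were above all wildtype libraries, as 10.7% of the tested genes were, whereas Runx1mut and miR146aKO_Runx1mut overlapped wildtype through A053. With log2 differences from wildtype of 1.20 ± 0.62 in miR146aKO (edgeR adjusted p = 0.373), 1.24 ± 0.62 in Runx1mut (0.933) and 0.80 in miR146aKO_Runx1mut, Cd48 was not called in any contrast. Cd48 ran with the Y-linked level over the 12 libraries (r = 0.75), and with it as a covariate the 3 differences were 0.51, 0.66 and 0.30. Without A053 the first was 2.08. Its means ran from 131 ± 56.45 CPM in Runx1mut over 127 ± 12 in miR146aKO and 97.0 ± 50.9 in miR146aKO_Runx1mut to 55.6 ± 47.8 in wildtype (SD, n = 3 each).

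The ratio of Slamf1 to Cd48 per kilobase was 2.2 in A015, 0.79 in A040 and 0.0548 in A053. Only A015 had more Slamf1 than Cd48 transcript per kilobase. In miR146aKO the ratio was 0.11, 0.0114 and 0.0586 in A047, A150 and A151. In Runx1mut it was 0.0833 in A042 against 0.00871 in A021 and 0.00775 in A058, and in miR146aKO_Runx1mut it was 0.0644 in A031 against 0.00094 in A001 and 0.000602 in A051. The wildtype library A053 lay among the other groups, between A151 and A150.

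Procr had the widest range among the members with counts in every library, and it was the member in which wildtype stood apart from all other groups. The gene (chromosome 2, 155751117 to 155755471, plus strand) encodes a receptor that binds protein C. It was at 269, 166 and 92.8 CPM in A015, A040 and A053 of wildtype. The values were 37.6, 4.355 and 2.68 CPM in A047, A150 and A151 of miR146aKO, 1.70, 41.3 and 0.342 in A021, A042 and A058 of Runx1mut, and 0.172, 28.6 and 0.2425 in A001, A031 and A051 of miR146aKO_Runx1mut. A001 and A051 rested on 1 count each and A058 on 2. All 3 wildtype libraries were above the other 9, a pattern of 1.26% of the tested genes, and the 3 altered groups overlapped one another.

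The Procr means were 176 ± 88.7 CPM in wildtype, 14.9 ± 19.7 in miR146aKO, 14.4 ± 23.2 in Runx1mut and 9.67 ± 16.4 in miR146aKO_Runx1mut (SD, n = 3 each). Log2 differences from wildtype were -3.57 ± 1.73 in miR146aKO, -3.60 ± 1.72 in Runx1mut and -4.17 ± 1.77 in miR146aKO_Runx1mut, with edgeR adjusted p of 0.334, 0.915 and 0.49. None was called by edgeR after the count filter or by DESeq2, and all 3 were called by edgeR with no count filter (adjusted p = 0.00727, 0.0251 and 0.00426). These 3 comparisons share the wildtype libraries. Without A042 the Runx1mut value was -7.37, and without A031 the miR146aKO_Runx1mut value was -9.61, neither called. Without A047 the miR146aKO value was -5.63, and with the Y-linked covariate the 3 values were -10.54, -10.0 and -10.56, none called. Since this covariate goes with genotype between wildtype and miR146aKO, these values do not show a larger difference.

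Tek (chromosome 4, 94739289 to 94874976, plus strand) was nearly absent from miR146aKO, with 3, 3 and 0 counts in A047, A150 and A151 (0.948, 0.726 and 0 CPM). A count of 0 in A151 allows up to 0.73 CPM, from 3 counts, and such floors cover counting error only. Wildtype libraries A015, A040 and A053 had 48.2, 53.3 and 4.27 CPM. In Runx1mut, A042 had 85.8 CPM and A021 and A058 had 3.55 and 3.59. In miR146aKO_Runx1mut, A031 had 66.3 CPM and A001 and A051 had 0.3445 and 2.18. The miR146aKO libraries lay below every wildtype and every Runx1mut library but overlapped miR146aKO_Runx1mut through A001.

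Tek differed by -5.96 ± 2.02 on the log2 scale between miR146aKO and wildtype (edgeR adjusted p = 0.176, unadjusted p = 0.0103), a fitted value that rests on 6 counts in the whole miR146aKO group. With the Y-linked covariate it was -11.44 (adjusted p = 0.282). Between miR146aKO_Runx1mut and miR146aKO it was 5.34 ± 1.97 (edgeR adjusted p = 0.23), and 1.15 without A031 (adjusted p = 0.75), which held 373 of the 384 counts of its group. DESeq2 set no p for Tek, as an outlying count. Markers of endothelium, where Tek is also expressed, summed over 8 genes to 57.1 to 91.7 CPM in the wildtype libraries, 49.6 to 373 in those of miR146aKO, 55.3 to 80.7 in Runx1mut libraries and 34.5 to 130 in miR146aKO_Runx1mut. Cldn5 was at 0 in 10 of the 12 libraries, Cdh5 was at 0 in all 3 wildtype libraries, and the part of these markers in the Tek difference was not tested.

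Angpt1, the ligand that activates Tek, was chosen for description after its values were seen. It was at 693, 319 and 547.5 CPM in A015, A040 and A053 of wildtype and at 102, 23.5 and 58.2 in A047, A150 and A151 of miR146aKO. In Runx1mut, A042 was at 400 CPM and A021 and A058 at 68.1 and 49.96, and in miR146aKO_Runx1mut, A031 was at 268.5 and A001 and A051 at 2.24 and 39.0. A042 and A031 were thus the highest libraries of their groups for the ligand as for the receptor. Angpt1 was not called in miR146aKO against wildtype (log2 difference -3.08 ± 1.19, edgeR adjusted p = 0.228).

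Cd34 encodes a sialomucin that adult stem cells lack and progenitors carry. The gene (chromosome 1, 194938819 to 194961279, plus strand) was at 71.15, 112 and 432 CPM in A015, A040 and A053 of wildtype and at 74.9, 30.5 and 30.2 in A047, A150 and A151 of miR146aKO. It was at 78.6, 622 and 74.4 CPM in A021, A042 and A058 of Runx1mut and at 53.4, 204.5 and 97.5 in A001, A031 and A051 of miR146aKO_Runx1mut. All 4 groups overlapped. A053, the wildtype library with the least Slamf1 and the most Cd48, had the most Cd34 of its group.

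In the order of means, Cd34 was at 258 ± 315 CPM in Runx1mut, 205 ± 197.5 in wildtype, 118.5 ± 77.7 in miR146aKO_Runx1mut and 45.2 ± 25.7 in miR146aKO (SD, n = 3 each). The log2 difference of miR146aKO from wildtype was -2.18 ± 0.89 (edgeR adjusted p = 0.254, unadjusted p = 0.0271). It was -1.04 without A053 and -4.25 with the Y-linked covariate. Cd34 ran opposite to the monocyte and macrophage (r = -0.718) and B cell markers (r = -0.638), whose part in it was not tested. Cd34 overlaps the antisense gene Gm16897, and since the kit kept no strand, reads of the pair cannot be told apart.

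Cd27, a receptor of the TNF receptor family whose ligand is CD70, had 143, 137.5 and 284 CPM in A015, A040 and A053 of wildtype. In miR146aKO, A047 had 242 CPM and A150 and A151 had 24.7 and 29.45. In Runx1mut, A042 had 308 CPM and A021 and A058 had 39.6 and 8.04, and miR146aKO_Runx1mut had 59.4, 60.2 and 11.9 in A001, A031 and A051. The miR146aKO_Runx1mut libraries were all lower than the wildtype ones, and 1 library in each of the other altered groups lay within or above the wildtype range. The gene is at chromosome 6, 125232622 to 125237010, minus strand, and overlaps Vamp1 on the other strand.

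Mean levels of Cd27 were 188 ± 82.9 CPM in wildtype, followed by Runx1mut at 118.5 ± 164.7, miR146aKO at 98.6 ± 124 and miR146aKO_Runx1mut at 43.85 ± 27.7 (SD, n = 3 each), with every neighbouring pair overlapping. The log2 difference between miR146aKO_Runx1mut and wildtype was -2.10 ± 1.11 (edgeR adjusted p = 0.589), and -2.40 without A031 (adjusted p = 0.448).

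Thy1 (chromosome 9, 44043384 to 44048579, plus strand) was low in wildtype, at 7.525, 2.44 and 1.42 CPM in A015, A040 and A053. In the other groups 1 library exceeded the rest of its group. A047 of miR146aKO was at 286 CPM with A150 and A151 at 9.44 and 4.625, A021 of Runx1mut at 81.6 with A042 and A058 at 14.2 and 0.513, and A001 of miR146aKO_Runx1mut at 31.35 with A031 and A051 at 0 and 0.2425. The 0 counts of A031 allow up to 0.533 CPM. Each group overlapped each other group.

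Thy1 is also a defining antigen of T cells. The 8 markers of T and NK cells summed to 1450 CPM in A047 and to 1.94 to 78.4 in the other 11 libraries, and Cd3e, which belongs to the T cell receptor, reached 644 CPM there and 8.71 or less elsewhere. In A021 and A001, the other libraries with high Thy1, the summed markers were at 43.7 and 11.2 CPM and Cd3e at 2.84 and 0.172. The log2 difference of miR146aKO from wildtype was 4.70 ± 2.08 (edgeR adjusted p = 0.291, unadjusted p = 0.0402), and 0.88 without A047 (adjusted p = 0.869). The part of these markers in it was not tested. The interaction of Thy1 was -6.30 ± 2.74 (edgeR adjusted p = 0.488), and -2.48 without A047.

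**Figure D3:**
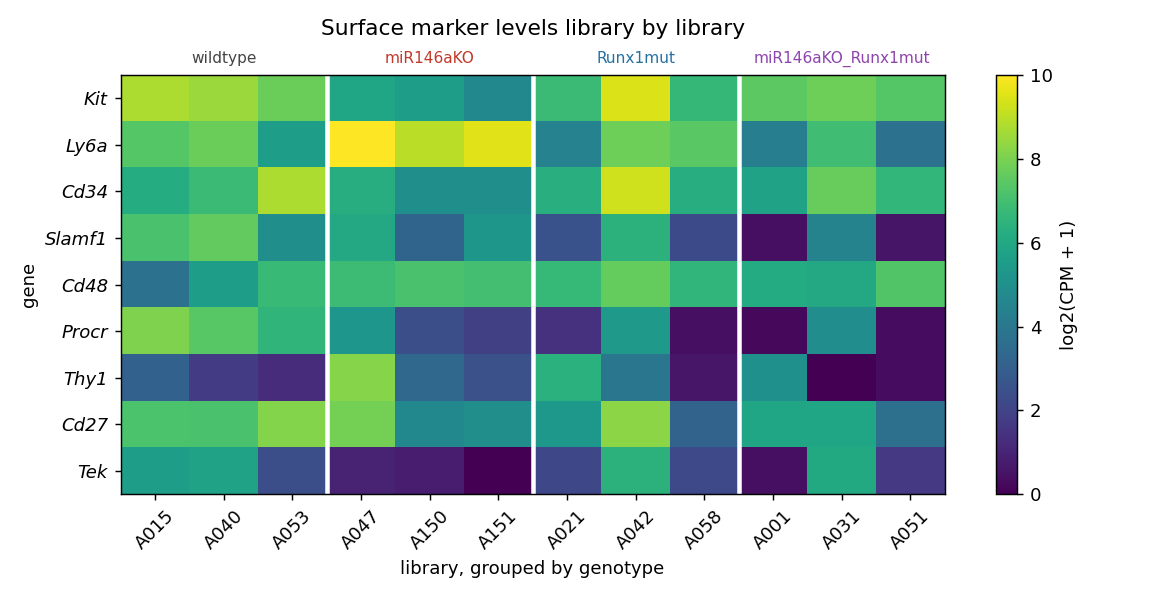
Level of the 9 genes (rows) in the 12 libraries (columns, ordered by group) as log2(CPM + 1), on 1 colour scale. A042 of Runx1mut and A031 of miR146aKO_Runx1mut are higher than both other libraries of their groups for Slamf1, Procr and Tek.

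Levels of different genes were compared per kilobase of exon. In wildtype the mean was highest for Ly6a at 117.5 CPM per kilobase, followed by Procr at 86.7, Cd27 at 80.9, Cd48 at 46.75, Kit at 38.0, Cd34 at 28.1, Slamf1 at 19.8, Tek at 7.48 and Thy1 at 1.27. In miR146aKO the order of means was Ly6a at 627, Cd48 at 107, Cd27 at 42.4, Thy1 at 33.4, Procr at 7.33, Cd34 at 6.20, Slamf1 at 6.08, Kit at 4.94 and Tek at 0.118 CPM per kilobase. The place of Thy1 above Kit in miR146aKO rests on A047, since in A150 and A151 Kit was at 5.35 and 2.76 CPM per kilobase and Thy1 at 3.15 and 1.54.

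Across the 12 libraries, which share their 4 genotypes, the members fell into pairs of like pattern, given as a description. The closest pair was Slamf1 and Procr (Pearson r = 0.903 of log2 CPM), then Kit and Tek (0.847), Procr and Cd27 (0.814) and Kit and Cd34 (0.729). Kit and Ly6a, which the sort required together, had r = -0.361, and Slamf1 and Cd48 had -0.35. The summed level of 8 other stem cell transcripts, among them Hlf, Mllt3 and Meis1, ran with Procr (r = 0.89) and Slamf1 (0.868). It was at 819 to 2231 CPM in wildtype and 130 to 298 in miR146aKO. In Runx1mut it was 1606 CPM in A042 and 100.3 to 281 in the other 2 libraries, and in miR146aKO_Runx1mut it was 890.0 in A031 and 47.4 to 48.7 in the other 2.

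A042 and A031 had in common that they were the highest of their groups for Kit, Ly6a, Slamf1, Procr, Cd27 and Tek, and for Cd34. They also had the highest sums of the 8 mast cell and basophil markers in their groups, at 3268 and 827 CPM against 106.5 to 641 in the other 4 libraries with mutant Runx1. Kit, Tek and Cd34 ran with these markers over the 12 libraries (r = 0.821, 0.824 and 0.809). The list includes Gata2, which is also among the 8 stem cell transcripts and the regulators of Kit transcription described below. In A015, A040 and A053 of wildtype, Gata2 alone was at 461, 165 and 198 CPM, of sums of 474, 253 and 352. Cpa3, a protease of mast cells and early progenitors, was at 1419 CPM in A042 and 348 in A031. Ms4a2, Fcer1a, Cma1, Tpsb2 and Gata2 were likewise highest in A042 and A031 within their groups. Mcpt8 went the other way, at 1.99 CPM in A042 against 31.4 in A021 and 20.0 in A058. It was at 9.95 CPM in A031 against 46.7 in A001 and 93.35 in A051. Hdc was at 265 CPM in A042 and 348 in A058. The 8 megakaryocyte markers were likewise highest in A042 and A031 within their groups, at 2043 and 2515 CPM, and ran with Tek (r = 0.8) and Kit (r = 0.577). They summed to 353 to 2218 CPM in wildtype and 116 to 140 in miR146aKO, with all 8 on the lower side there and 4 at an unadjusted p under 0.05. Over all tested genes, 49.9% were on the higher side in that contrast and 15.9% had an unadjusted p under 0.05 in either direction. The next libraries in these groups were A058 at 1184 CPM and A051 at 1874. The 8 neutrophil markers went the other way, lowest in A042 and A031 within their groups at 2380 and 12120 CPM. They summed to 52660 and 21590 CPM in A021 and A058 and to 53250 and 33610 in A001 and A051. Over the 12 libraries they ran opposite to Slamf1 (r = -0.676), Ly6a (-0.617) and Procr (-0.581). The 8 stromal markers were highest of their groups in A042 and A031, at 55.1 and 760 CPM. The part of these markers in the levels of the members was not tested.

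The tests over all genes set these values against the background. In miR146aKO against wildtype, edgeR called 0 of the 9 members at an adjusted p under 0.05 (0.18% of the tested genes were called), DESeq2 called 1, which was Kit, and 5 had an unadjusted p under 0.05, namely Kit, Ly6a, Cd34, Thy1 and Tek (15.9% of the tested genes). With no count filter edgeR called 6 members, which were these 5 and Procr, among 796 genes. The libraries of the 2 groups did not overlap for 5 members, with Ly6a and Cd48 higher and Kit, Procr and Tek lower (20.9% of the tested genes in either direction). The median log2 difference was -1.70, with 3 members on the higher and 6 on the lower side, against -0.0030 over all tested genes.

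Runx1mut against wildtype gave 0 called members by edgeR (0.0% of the tested genes), 0 by DESeq2 and 0 with an unadjusted p under 0.05 (5.52%). With no count filter edgeR called Procr. Procr was also the one member whose libraries did not overlap (12.1% of the tested genes). The log2 differences of Kit, Ly6a, Cd34 and Tek were -0.14 ± 0.63, -0.03 ± 0.86, 0.33 ± 0.85 and -0.18 ± 1.54, all within 1 SE of 0. The median over members was -0.14 against 0.0053 over all genes.

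For miR146aKO_Runx1mut against wildtype, edgeR and DESeq2 again called 0 members (0.0% of the tested genes by edgeR), and Slamf1 and Procr had an unadjusted p under 0.05 (9.42%) and were called by edgeR with no count filter. Slamf1, Procr and Cd27 were lower without overlap (13.5% of the tested genes did not overlap in either direction). The median was -0.855, with 2 members higher and 7 lower, against 0.0325 over all genes. Cd48 and Thy1 were the 2 on the higher side.

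Between miR146aKO_Runx1mut and Runx1mut all 9 members were on the lower side, from -0.43 for Tek to -2.05 for Slamf1, with a median of -1.13 against 0.0060 over all genes. Neither edgeR nor DESeq2 called a member (0.0% of the tested genes by edgeR), none had an unadjusted p under 0.05 (4.63%), and for none were the groups without overlap (9.27%). The adjusted p was 0.999 for each. Without A042, the estimates of Kit (0.81), Cd34 (0.63), Slamf1 (0.82), Procr (3.19), Cd27 (0.88) and Tek (2.67) were on the higher side. Without A031 all 9 stayed on the lower side, from -0.21 for Cd48 to -6.17 for Slamf1, with none called.

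Against miR146aKO, the miR146aKO_Runx1mut libraries had 0 members called by edgeR (0.0157% of the tested genes) and 1, Ly6a, by DESeq2, with Kit, Ly6a and Tek at an unadjusted p under 0.05 (14.8%) and called by edgeR with no count filter. Kit was higher and Ly6a lower without overlap (19.3% of the tested genes in either direction). The median was -0.60 against -0.0093 over all genes. The interaction had 0 members called by edgeR (0.0235%) and 0 by DESeq2, and 4 with an unadjusted p under 0.05, which were Kit at 2.23 ± 0.90, Ly6a at -3.86 ± 1.27, Thy1 at -6.30 ± 2.74 and Tek at 5.53 ± 2.46 (9.46% of the tested genes). With no count filter edgeR called the interaction of Ly6a and of Thy1. The interaction of Tek was 1.33 without A031 and that of Kit 3.76 without A042, neither called. The comparisons share libraries, so these values stand side by side and are not separate evidence.

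Over the 4 groups at once, edgeR called 0 members (0.408% of the tested genes) and DESeq2 called 2, Kit and Ly6a, while Kit, Ly6a and Procr had an unadjusted p under 0.05 (14.7%). The edgeR adjusted p was 0.142 for Kit and 0.131 for Ly6a. It was 0.024 for Kit without A042 and 0.0427 for Ly6a without A031, and with no count filter 7 members were called, all but Cd48 and Cd27.

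**Figure D4:**
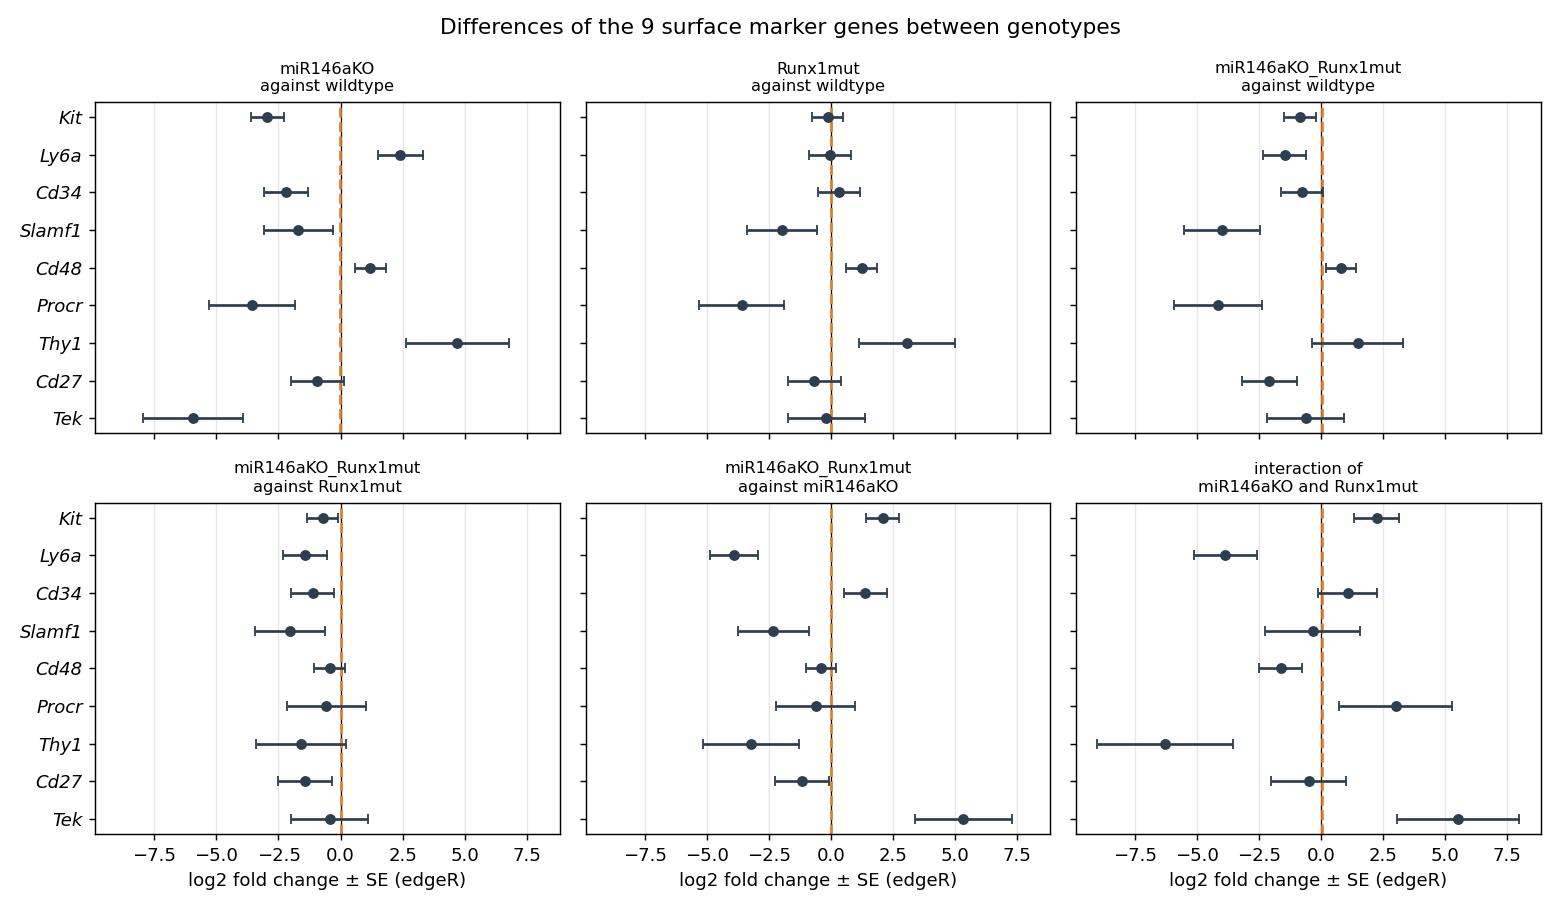
Log2 difference ± SE (x axis, edgeR) of each of the 9 genes (y axis) in the 6 contrasts, 1 panel each, with the median of all 12744 tested genes as a dashed line. Kit lies below and Ly6a above 0 in miR146aKO against wildtype, both on the opposite side in miR146aKO_Runx1mut against miR146aKO, and all 9 lie below 0 in miR146aKO_Runx1mut against Runx1mut.

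Genes of the same pathways were read from lists. Among the 19 ligands and partners of the members, 14 were tested, and 3 rose in miR146aKO against wildtype by edgeR, while 0 fell (0.18% of all tested genes were called). Cd2, the lymphocyte receptor that binds CD48, was at 0 to 0.1424 CPM in wildtype and 78.4 to 95.5 in miR146aKO (adjusted p = 0.00344). Cd2 was also lower in miR146aKO_Runx1mut than in miR146aKO and had an interaction past the threshold. Sh2d1b1, an adaptor of SLAM family receptors, had 0 CPM in wildtype and 34.8 to 50.9 in miR146aKO (adjusted p = 0.0289), and Itgb2, an integrin subunit of leukocytes, rose from 49.8 ± 27.95 to 348 ± 80.8 CPM (adjusted p = 0.0339). The ligands Cd70 and Proc had 0 counts in all 12 libraries. Cd2 was called in miR146aKO against wildtype in all 12 fits that left out a library. Sh2d1b1 and Itgb2 were called in 7 and 8 of the 12, neither without A015, A053, A150 or A151 nor, for Sh2d1b1, without A040, and neither was called with the Y-linked covariate (edgeR adjusted p = 0.0664 and 0.282). Without A001 Cd2 was not called in miR146aKO_Runx1mut against miR146aKO.

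Of 17 genes of Kit signalling, all tested, 1 rose and 0 fell in miR146aKO against wildtype (0.18% of all tested genes were called). Sh2b3, an adaptor that restrains cytokine receptors, rose from 41.5 ± 7.14 to 189 ± 44.9 CPM (log2 difference 2.18 ± 0.40, edgeR adjusted p = 0.0493). It was called in 6 of the 12 fits that left out a library, not without A015, A040, A053, A150, A151 or A021, and not with the Y-linked covariate (adjusted p = 0.282). The list had a median of 0.12 and Kit itself a value of -2.95. The other signalling genes named by the rule did not pass the test, with Pik3r1 at 251 to 397 CPM in wildtype and 198 to 416 in miR146aKO, Cbl at 270 ± 153 and 259 ± 54.05, and Pik3cd at 241 ± 95.0 and 435.5 ± 226.

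The 10 regulators of Kit transcription had 0 members called in miR146aKO against wildtype by edgeR, with 5 lower and 0 higher at an unadjusted p under 0.05 and a median of -0.87. Over all tested genes 0.18% were called and 15.9% had an unadjusted p under 0.05. Myb, a factor of progenitor growth, was at 1016 ± 464.5 CPM in wildtype and 297 ± 213 in miR146aKO (log2 difference -1.77 ± 0.52, edgeR adjusted p = 0.131). Lmo2, a bridging partner of Tal1 and Gata factors, was at 457 ± 273 and 152 ± 21.5 CPM (-1.59 ± 0.54, adjusted p = 0.175). Fli1 was at 209 ± 69.1 and 179 ± 20.8 CPM, and Runx1 at 237 to 359.5 and 98.3 to 168.5 CPM, neither called. In Runx1mut, A042 had the most Runx1 of all libraries, at 609 CPM, as it had the most Kit.

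Among 17 other antigens used in stem cell and progenitor gates, all tested, 1 rose and 0 fell in miR146aKO against wildtype, and at an unadjusted p under 0.05 the counts were 5 and 5 (0.18% and 15.9% over all tested genes). Ptprc, which encodes the leukocyte antigen CD45, rose from 264 to 380 CPM in wildtype to 1085 to 1268 in miR146aKO (log2 difference 1.86 ± 0.30, edgeR adjusted p = 0.0322), a call that did not hold without A015, A040, A053, A150 or A151 or with the Y-linked covariate (adjusted p = 0.234). The integrin Itga6 was at 238 ± 125 CPM in wildtype and 71.8 ± 66.9 in miR146aKO, and Cd93 at 470 ± 158 and 300.4 ± 42.3, neither called.

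The genes whose pattern was most like that of Kit, among 6955 compared over the 12 libraries, were Nedd4 (r = 0.921), Rpl14-ps1 (0.892), Ocrl (0.89), Rpl14 (0.881) and Ttbk2 (0.878). The most opposite were Gpsm3 (-0.978), Card6 (-0.95) and Evl (-0.931). For Ly6a the most alike were Tmem176a (0.961), Rnf103 (0.951), Fam63b (0.949), Zfp831 (0.925) and Calcoco1 (0.917), and the most opposite Hnrnpab (-0.939), Hnrnpm (-0.939) and Nifk (-0.932). These correlations are over libraries of 4 genotypes and were picked as extremes. Rpl14-ps1 and Rpl14 are near copies whose reads can be split between them.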

How the data were processed

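RNA of sorted GFP-positive LSK cells was measured in 12 libraries, made per the labels' protocols with the NuGEN Ovation v2 kit and Nextera XT, which do not keep strand. The authors deposited raw read counts per gene symbol. The submitters' processing notes name mm10, HISAT2 2.0.4 and featureCounts 1.5.2, with FastQC 0.11.2. How strand and multi-mapping reads were handled, and the annotation, are not given there. Columns were assigned to genotypes through a second deposited table, which numbers no replicates.

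From these counts edgeR 4.0.16 (R 4.3.3) computed TMM-scaled CPM and 1 quasi-likelihood fit over all 12 libraries after filterByExpr (12744 of 24421 genes), with 6 contrasts and a test over the 4 groups. Calls required an adjusted p under 0.05 (Benjamini-Hochberg, over all tested genes). Total counts per library were 3540043 to 7026393, with a common biological coefficient of variation of 0.809. The edgeR fit was also run on simulated data, the outcome of which is not given here and backs no value above. Gene positions and exon lengths are from GENCODE vM21 (GRCm38), and correlations used log2 CPM with a prior count of 2. Alternatives were DESeq2 1.42.0 with its own filter on mean count in place of filterByExpr, RLE scaling, no filter, Rn45s left out, a Y-linked covariate and each library left out in turn. The 9 genes and all lists were chosen with earlier results of these data known. All 9 members are named, with up to 4 genes per related list (called genes, then the most abundant) and the 5 most alike and 3 most opposite genes of Kit and of Ly6a. Some genes that this rule would name are not reported here. No column was left unused.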

Additional observations from a re-analysis of the deposited data

How the results depend on the processing

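The calls depended on the count filter. DESeq2 was run without that filter but with its own filter on mean count, which left 12608 to 15069 genes tested. The tool and the filter therefore cannot be told apart there. No member changed direction in miR146aKO against wildtype under any alternative run. Over the 54 pairs of a member and a contrast, 34 kept their sign under every alternative, 20 changed it when 1 of 12 libraries was left out and 3 of these 20 also under the Y-linked covariate (Cd34 in Runx1mut against wildtype at -1.53, and the interactions of Slamf1 at 3.64 and Cd27 at 0.94). In the order miR146aKO, Runx1mut and miR146aKO_Runx1mut against wildtype, miR146aKO_Runx1mut against Runx1mut and against miR146aKO, interaction and any difference, the tests called 23, 0, 0, 0, 2, 3 and 52 genes. DESeq2 called 989, 122, 245, 85, 785, 235 and 1070, and edgeR with no filter 796, 162, 256, 144, 549, 268 and 1359. Members called rose from 0 to 1, 0, 0, 0, 1, 0 and 2 by DESeq2 and to 6, 1, 2, 0, 3, 2 and 7 with no filter, and the cause was not tested. With the Y-linked covariate 9 genes were called in miR146aKO against wildtype and 4 over the 4 groups. The last test called 0.408% of tested genes, 8.49% by DESeq2, 7.07% with no filter and 0.0314% with the Y-linked covariate. For miR146aKO_Runx1mut against miR146aKO the count was 13 with RLE scaling and 11 without Rn45s. Leaving out each library gave 2 to 135, 0 to 2, 0 to 0, 0 to 0, 0 to 7 and 1 to 6 genes in the first 6 tests and 0.00744% to 1.12% of genes over the 4 groups, with 2 genes in the first test without A053 or A151 and 135 without A047, and 0 to 1 members in miR146aKO against wildtype and over the 4 groups, with 0 in the rest.

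The signs that turned when a library was left out had these ranges of the log2 difference. In Runx1mut against wildtype they were -1.67 to 0.28 for Kit, -0.56 to 0.48 for Ly6a, -1.42 to 1.52 for Cd34 and -3.29 to 0.37 for Tek. In miR146aKO_Runx1mut against wildtype they were -1.44 to 0.35 for Cd34 and -4.90 to 2.45 for Thy1. Against Runx1mut they were -1.17 to 0.81 for Kit, -1.78 to 0.63 for Cd34, -6.17 to 0.82 for Slamf1, -6.00 to 3.19 for Procr, -7.96 to 0.45 for Thy1, -1.99 to 0.88 for Cd27 and -4.63 to 2.67 for Tek. Against miR146aKO they were -6.03 to 1.46 for Procr, -9.59 to 0.59 for Thy1 and -1.62 to 0.70 for Cd27. For the interaction they were -0.13 to 2.81 for Cd34, -4.47 to 2.52 for Slamf1, -2.43 to 6.77 for Procr and -1.05 to 1.82 for Cd27. Low counts limit Procr, Slamf1, Tek and Thy1, which had 3 counts or fewer in at least 1 library. No paired analysis was possible because the count columns carry no replicate number.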

Other observations

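Relatives of Ly6a and Slamf1 that are not among the 9 genes are given next. In miR146aKO against wildtype 49.9% of all tested genes had a positive log2 difference, 15.9% had an unadjusted p under 0.05 and 0.18% were called, the background for the counts of each list. Of 10 other Ly6 genes 9 were in the table and 5 were tested, and all 5 were on the higher side in miR146aKO against wildtype, with 0 called by edgeR and 2 at an unadjusted p under 0.05. Ly6d, an antigen of B cell progenitors, was at 0 to 5.11 CPM in wildtype and 127 to 188.5 in miR146aKO (adjusted p = 0.126), and at 0.1423 to 50.8 and 0.172 to 19.0 in Runx1mut and miR146aKO_Runx1mut. Ly6e was at 1010 ± 266 CPM in wildtype and 1904 ± 220 in miR146aKO (SD, n = 3 each, adjusted p = 0.166). Ly6c2, an antigen of monocytes, was highest in miR146aKO_Runx1mut at 1033 to 1526 CPM, the group in which Ly6a was lowest. Ly6k was at 419 CPM in A058 of Runx1mut and at 123 or less in the other libraries.

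Of 7 other SLAM family genes, all tested, 6 were on the higher side in miR146aKO against wildtype, 4 of them at an unadjusted p under 0.05, and 0 were called by edgeR. Ly9 was at 11.5 to 19.5 CPM in wildtype and 91.35 to 248 in miR146aKO (adjusted p = 0.0717), Cd84 at 87.1 to 145 and 254 to 282 (0.192), and Slamf7 at 3.56 to 72.8 and 238 to 349 (0.267). Cd244, the receptor for CD48 and an antigen of progenitors, was the exception, at 6.02 to 79.7 CPM in wildtype and 1.21 to 7.55 in miR146aKO. Slamf1 thus lay with Cd244 and apart from its other relatives in direction.

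Of 9 genes in the table from a list of lineage antigens chosen by name, all 8 tested were on the higher side in miR146aKO against wildtype. At an unadjusted p under 0.05 there were 7, and edgeR called 1, Ptprc. Ptprc is also in the list of gate antigens above and was at 264 to 380 CPM in wildtype. Its call therefore does not by itself stand for a lineage antigen. Il7r was at 1.23 to 24.2 CPM in wildtype and 18.3 to 380 in miR146aKO, and Itgam at 52.6 to 120 and 100.3 to 202. In miR146aKO_Runx1mut against miR146aKO, 6 of the 8 were on the lower side.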
